A study of Mus musculus with 2 samples.

Results

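Sox genes encode transcription factors that bind DNA through an HMG box, and 10 of them known from embryonic stem (ES) cells and the nervous system are described here: Sox1, Sox2, Sox3, Sox21, Sox4, Sox11, Sox9, Sox5, Sox6 and Sox8. Their members on the array were found by the gene name that the scanner files give to each probe, which picked 26 of 41043 gene probes. Of the 10 genes, 9 were measured, meaning that 1 array or both detected them clearly over background, out of 14967 measured genes in all. Sox3 was not. One sample was RNA from embryoid bodies (floating cell aggregates) of the mouse ES cell line R1 on day 6 of direct neural differentiation, which the labels also call neural precursor cells. It was set against RNA from undifferentiated R1 ES cells on day 0, grown on mitotically inactive fibroblast feeders with 15% serum and 1000 U/ml leukaemia inhibitory factor (LIF). Both samples came from the same line, and the labels name no allele or other agent for either. The sources used here do not give the day 6 medium or say whether feeders were removed.

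Sox proteins are grouped by the likeness of their HMG boxes. SoxB1 proteins (Sox1, Sox2, Sox3) keep progenitors undifferentiated. Sox2 works with Oct4 in ES cells and with POU and Pax factors in neural progenitors, and Sox1 is an early marker of neural plate. Sox21, a SoxB2 protein, counteracts SoxB1 proteins. SoxC proteins (Sox4, Sox11) act in cells that are becoming neurons. SoxE proteins (Sox8, Sox9) act in neural stem cells, glia, neural crest and cartilage, and SoxD proteins (Sox5, Sox6) lack a transactivation domain and act beside SoxE proteins.

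Each sample had 1 array, so no test between days was possible, and no difference has a replicate check. Having 2 arrays limits the precision. Values are the scanner software's background-subtracted intensities. Differences are day 6 minus day 0 on the log2 scale after the 75th percentile of each array was subtracted. The ± beside a difference is the SD given by the software's error model, which holds no variation between cultures. The dimmest probe that passed the software's background flag read 85.2 on day 6 and 102 on day 0. Where only the day 6 spot was well above background, "at least" marks a bound that sets the day 0 side to the higher of the probe's own value and the lowest value well above background there. The levels of different probes are not comparable, and only their differences are set side by side. In bulk RNA, more cells of a type and more RNA per cell cannot be told apart.

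The labelled cell types were checked against marker genes. Of 5 ES cell markers, 5 were at least 4-fold lower on day 6, with a summed intensity of 29341 on day 6 and 989578 on day 0. Of 5 neural precursor markers (Sox1, Pax6, Nes, Fabp7 and Hes5), 4 were at least 2-fold higher and none was lower. Sox1 is among the higher ones and is itself a Sox gene described here, so this check is not separate from the results. Of 4 neuronal markers, 3 were higher. Fibroblast markers, which feeders express, were 2-fold lower or more in 5 of 8 on day 6, while the other 3 were higher by less than 2-fold. The summed intensity of the 8 was 26558 on day 6 and 124804 on day 0, and their part in the Sox values was not tested. Each sum adds the same probes on both arrays before scaling, and the brightest probes weigh most in it.

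The probes that carry the results are shown 5′ to 3′, in the order in which they lie along each gene, since probes of 1 gene gave differences of unequal size. Probes open in at least 2 of 3 reading frames are given whole, and the first 30 bases of the others. Capitals mark the longest run of bases shared by probes of different Sox genes (10 bases) and, in 1 Sox11 probe, the letters AATAAA of a polyadenylation signal. No pair of probes from different Sox genes, among 290 pairs, shared a longer run.
Sox1, A_51_P176337: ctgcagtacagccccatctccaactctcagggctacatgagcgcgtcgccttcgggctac
Sox2, A_52_P307739: tggcaatcaaatgtccattgtttataagct
Sox21, A_52_P557911: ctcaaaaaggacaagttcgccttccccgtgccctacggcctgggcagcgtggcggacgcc
Sox21, A_52_P406411: agggggcccggtttgtatgtacatagatgt
Sox21, A_52_P326502: gaagttgtcagttcgatattctacccctga
Sox4, A_51_P105178: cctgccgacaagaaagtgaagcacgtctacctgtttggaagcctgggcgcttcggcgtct
Sox11, A_52_P608516: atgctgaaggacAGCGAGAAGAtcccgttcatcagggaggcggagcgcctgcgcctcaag
Sox11, A_52_P114703: cagagggacccttttggcggcacaactgtt
Sox11, A_52_P178018: aatgcagtctgtacaaacgcttacaaaaat
Sox11, A_51_P283516: gtgtgcttaaagtgtgctttgcaaatacat
Sox11, A_51_P297434: catttgttcaaaagaccAATAAAaatcgtg
Sox11, A_52_P160955: aaccattctgtattgaaactcttgctataa
Sox9, A_51_P451606: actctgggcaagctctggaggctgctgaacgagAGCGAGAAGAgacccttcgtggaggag
Sox9, A_52_P577484: ttccaggagagagactttaagactttgtct
Sox9, A_52_P214630: ataaaaccttaaagcgttcttataatatgg

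On day 6, 8 of the 9 measured Sox genes were higher by 2-fold or more, going by their brightest probe, and none was at least 2-fold lower. Sox2 was the gene within 2-fold. The same calls held for 17.8% (higher) and 20.1% (lower) of all 14967 measured genes. With a 4-fold limit, 5 of the 9 were higher, beside 7.35% of all genes. Sox8 was measured on day 6 only, so its higher value on day 6 is built into its inclusion, and 7 of the 8 genes well above background on both arrays were at least 2-fold higher. The median difference of the 9 genes was 2.58, or 2.05 with Sox8 at its bound, beside -0.09 for all genes. The median was 1.96 with normexp background correction and 1.95 with no background subtraction.

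**Figure D1:**
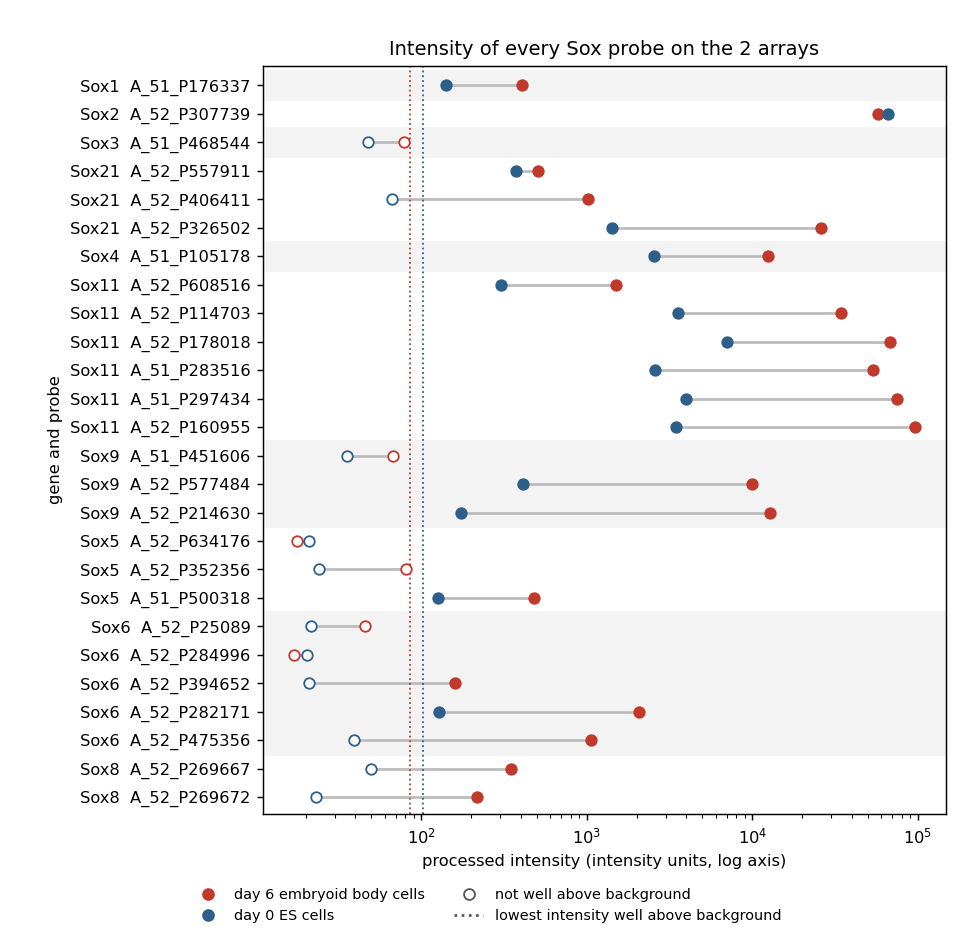
Processed intensity (log axis) of each of the 26 Sox probes, 1 row per probe, with day 6 in red and day 0 in blue; open circles were not well above background, and dotted lines mark the lowest intensity well above background on each array. Red circles lie right of blue ones in 23 of 26 rows, while those of Sox2 nearly coincide.

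Probe by probe, 20 of the 26 were well above background on at least 1 array. Of these, 15 were so on both arrays, 5 on day 6 only and none on day 0 only. At least a 2-fold higher value on day 6 was found for 16 of the 20 probes and a 2-fold lower value for none, beside 17.5% and 18.1% of 28378 measured probes. The 5 probes seen on day 6 only could not have been called lower. At least 4-fold higher were 13 of the 20 and none was 4-fold lower, beside 6.53% and 6.64% of those probes. The median difference of the 15 Sox probes measured on both arrays was 3.06, and that of all 23731 probes measured on both arrays was -0.10.

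Sox2, the SoxB1 factor shared by ES cells and neural progenitors, was well above background on both days. Its probe, for NM_011443 at chr3:34459231-34459290 on the plus strand of build mm7, gave an intensity of 57172 in day 6 cells and 66002 in day 0 cells. The difference was -0.43 ± 0.20, and it stood between -0.54 and -0.07 under the other processing settings. Sox2 thus differed by less than 2-fold in every setting run. In the list of all genes, 63.4% had a difference above that of Sox2.

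**Figure D2:**
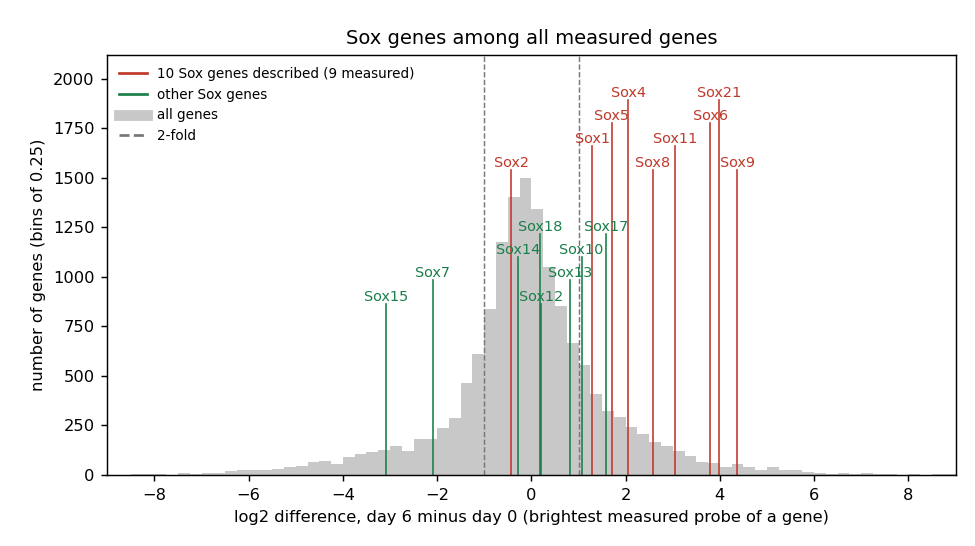
Histogram of the log2 difference, day 6 minus day 0, of 14967 measured genes in bins of 0.25, with the 9 measured Sox genes described here as red lines, 8 other measured Sox genes as green lines and 2-fold as dashed lines. Red lines other than Sox2 lie right of the 2-fold line, whereas green lines lie on both sides of 0.

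Genes that work with Sox2 or are bound by it in ES cells differed far more than Sox2 itself. Of 11 measured genes of that list, 11 were at least 4-fold lower on day 6 by their brightest probe, beside 8.35% of all genes. The median difference was -6.17, and -5.25 with the dimmest probe of a gene. Another probe differed by less than 4-fold for Klf2 (-0.82) and Sall4 (-1.49), with no bound set. Pou5f1, which encodes the Sox2 partner Oct4, read 302 in day 6 cells and 41679 in day 0 cells (difference -7.33 ± 0.22). Nanog, a pluripotency factor, differed by -5.99 ± 0.21 and Lefty1, an inhibitor of Nodal, by -6.71 ± 0.21.

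Genes that work with SoxB1 proteins in neural progenitors were mixed. Of 13 measured, 7 were higher by 2-fold or more on day 6 and 1 was lower, with a median of 1.08. The shares of all genes were 17.8% and 20.1%. The POU partner gene Pou3f2 (Brn2) was well above background on day 6 only and at least 54.6-fold higher. Pax6, another partner of Sox2, was 5.60-fold higher (2.49 ± 0.20), and the radial glia gene Fabp7 and the Notch effector gene Hes5 differed by 8.32 ± 0.23 and 8.07 ± 0.22. Nes, the gene of the intermediate filament nestin, whose enhancer Sox2 binds with POU factors, differed by 0.34 ± 0.20. Pou3f3, Msi1 and Gli2 were within 2-fold by their brightest probe. Another probe gave 6.31 for Pou3f3, 4.86 for Msi1 and -3.17 for Gli2, with no bound set. The median of this list was 2.34 when the probes of a gene were averaged and 2.44 with the dimmest probe of a gene. It was 0.80 over genes well above background on both arrays.

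Sox1 had low values on both arrays, at 406 intensity units on day 6 and 142 on day 0. The difference was 1.29 ± 0.34, or 2.45-fold. Its 1 probe, for NM_009233, lies at chr8:12371212-12371271 on the plus strand. Sox1 came under 2-fold in 2 settings, with differences of 0.91 with normexp and 0.83 with no background subtraction. Sox3 read 79.1 in day 6 cells and 47.9 in day 0 cells at chrX:56286797-56286856 on the minus strand, neither well above background, so no fold is given. Its probe was 65.0% G and C.

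Sox21, the SoxB2 gene, had 3 probes that disagreed in size. The brightest, for NM_177753 at chr14:112636647-112636706 on the minus strand, gave 26063 on day 6 and 1419 on day 0, a difference of 3.98 ± 0.21 or 15.7-fold. A second probe, 661 bases upstream of it, gave 1023 on day 6 and 66.5 on day 0, where it was not well above background, so it was at least 8.56-fold higher. The most 5′ probe, for NM_145464 at chr14:112637960-112638019, gave 511 on day 6 and 372 on day 0. Its difference of 0.23 ± 0.23 was about the size of its software error. The gap between the brightest and the most 5′ probe was 3.74 ± 0.31, beyond that error, and the call of Sox21 rests on the more 3′ probes.

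The SoxC genes were higher on day 6 by all 7 of their probes. Sox4, with 1 probe for NM_009238 at chr13:28317744-28317803 on the minus strand, had 12370 on day 6 and 2555 on day 0, a difference of 2.05 ± 0.20 or 4.15-fold. Sox11 was measured by 6 probes, the most of the 10 genes, all on the minus strand of chromosome 12 and all well above background on both arrays. Its brightest probe, A_52_P178018 at chr12:25176208-25176267, gave 67982 on day 6 and 7025 on day 0, a difference of 3.05 ± 0.20 or 8.29-fold. Over the 6 probes the difference lay between 2.08 ± 0.23 and 4.56 ± 0.20, which is 4.22-fold to 23.6-fold.

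The 6 Sox11 probes, taken from the 5′ to the 3′ side of the gene over 7409 bases, differed more the nearer they lay to the 3′ side, with 2 small steps back. The most 5′ probe (A_52_P608516), whose bases are known to encode part of the HMG box, gave 1492 on day 6 and 303 on day 0, a difference of 2.08. The next probes, A_52_P114703 and A_52_P178018, gave 3.06 and 3.05. Farther 3′, A_51_P283516 had 53867 on day 6 and 2586 on day 0 (4.16), and A_51_P297434 had 74635 on day 6 and 3987 on day 0 (4.003). The most 3′ probe, A_52_P160955 at chr12:25170366-25170425, gave 95906 on day 6 and 3485 on day 0 (4.56). Both of the last probes are listed under a cDNA clone, AK004158, and carry the name Sox11 in the scanner files. The gap between the 2 ends of the gene was 2.48 ± 0.31.

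Neuronal genes expressed with SoxC factors were mostly higher too. Of 12 measured, 10 were higher by 2-fold or more on day 6 and none was 2-fold lower, with a median of 2.42. The shares of all genes were 17.8% and 20.1%. Dcx, Nhlh1 and Neurog2 were detected on day 6 only, and the median of genes well above background on both arrays was 1.82. Tubb3, the neuronal tubulin gene that Sox4 and Sox11 can activate, was 3.16-fold higher (1.66 ± 0.20). Dcx, the gene of the microtubule protein doublecortin, was at least 93.5-fold higher, and Nhlh1, a neuronal transcription factor gene, at least 108-fold higher.

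**Figure D3:**
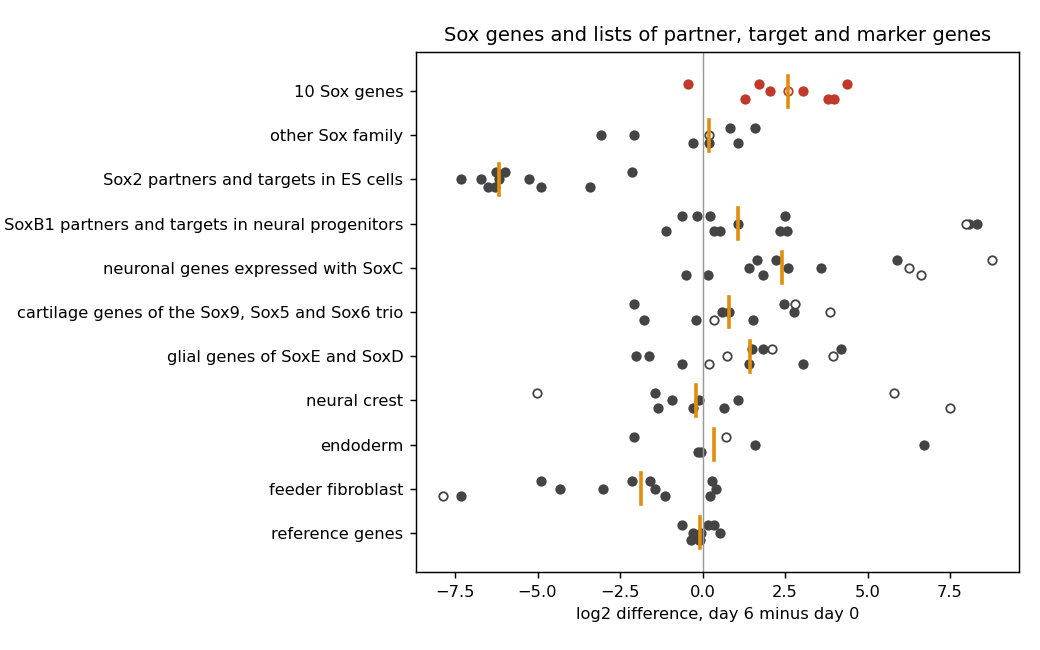
Log2 difference, day 6 minus day 0, of each measured gene in the 10 Sox genes (red) and in 10 lists of partner, target and marker genes (dark), with the list median as an orange bar and open circles for genes well above background on 1 array only. The bar of the Sox genes stands at 2.58, against -6.17 for Sox2 partners and targets in ES cells and -0.09 for reference genes.

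The SoxE gene Sox9 had the largest difference of the 9 genes. Its brightest probe, A_52_P577484 at chr11:112894739-112894798 on the plus strand, gave 9906 on day 6 and 410 on day 0, a difference of 4.37 ± 0.22 or 20.7-fold. Another probe, A_52_P214630 at chr11:112896540-112896599, was spotted 10 times on each array. Its 10 spots read 11983, 12790 and 13582 (lowest, median and highest) on day 6, against 162, 175 and 185 on day 0. The SD between these spots was 0.0586 log2 units on day 6 and 0.0707 on day 0, which covers technical error within an array only. Its difference was 5.99 ± 0.29, or 63.7-fold. In the list of all genes, 1.70% had a difference above that of Sox9 by its brightest probe.

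Another Sox9 probe, A_51_P451606, read 67.8 on day 6 and 35.5 on day 0, neither well above background. Its bases also encode part of the HMG box, and its 60 bases span 853 bases of the genome at chr11:112892041-112892893. So the same gene was 63.7-fold higher at its 3′ side and not measurable at its 5′ side. Both HMG box probes, of Sox9 and of Sox11, hold the shared run in capitals above.

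Sox8, the other SoxE gene, was well above background on day 6 only. Its probe A_52_P269667 at chr17:23751840-23751899 on the minus strand gave 348 on day 6 and 49.9 on day 0, at least 2.92-fold higher. Its second probe gave 218 on day 6 and 23.2 on day 0, at least 1.83-fold higher. Sox8 therefore had no measured day 0 level, and its fold depends on the floor chosen.

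The SoxD genes were both higher on day 6 by their brightest probes. Sox5 had 479 on day 6 and 126 on day 0 at chr6:143923668-143923727 on the minus strand, a difference of 1.71 ± 0.32 or 3.27-fold. Its other probes lay 74010 and 271839 bases upstream and were not well above background. They read 81.5 and 17.7 on day 6, and 24.0 and 20.8 on day 0. Sox6 had 2083 on day 6 and 128 on day 0 at chr7:111391015-111391074 on the minus strand, a difference of 3.80 ± 0.32 or 13.9-fold. Of the other 4 Sox6 probes, the most 3′ one gave 1068 on day 6 and 39.1 on day 0 (at least 8.94-fold higher). The next gave 159 on day 6 and 20.9 on day 0 (at least 1.33-fold higher), and the 2 most 5′ ones, at 45.5 and 17.1 on day 6 and at 21.6 and 20.5 on day 0, were not well above background. The day 0 values of both genes, 126 and 128, stood near the lowest measurable 102.

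Along the gene, 3 Sox genes had at least 2 probes well above background on both arrays. In Sox21, Sox11 and Sox9 the smallest difference of these probes was at the most 5′ one and the largest at the most 3′ one. The gap between the ends was 3.74 ± 0.31 in Sox21, 2.48 ± 0.31 in Sox11 and 1.62 ± 0.36 in Sox9, and Sox21 and Sox9 have only 2 such probes each. With the probe listed as A730017D01Rik counted to Sox5, the most 5′ probe was lowest in 3 of 4 genes. Sox6 and Sox8 give no order, since their end probes were detected on day 6 only. Their bounds, from 5′ to 3′, were 0.42 and 3.16 for Sox6, on either side of the probe measured at 3.80, and 1.54 and 0.87 for Sox8. Among 360 other genes that had more than 1 probe of this kind, and whose most changed probe was at least 4-fold higher on day 6, the most 5′ probe had the smallest difference in 62.8%, and the median gap was 0.47.

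**Figure D4:**
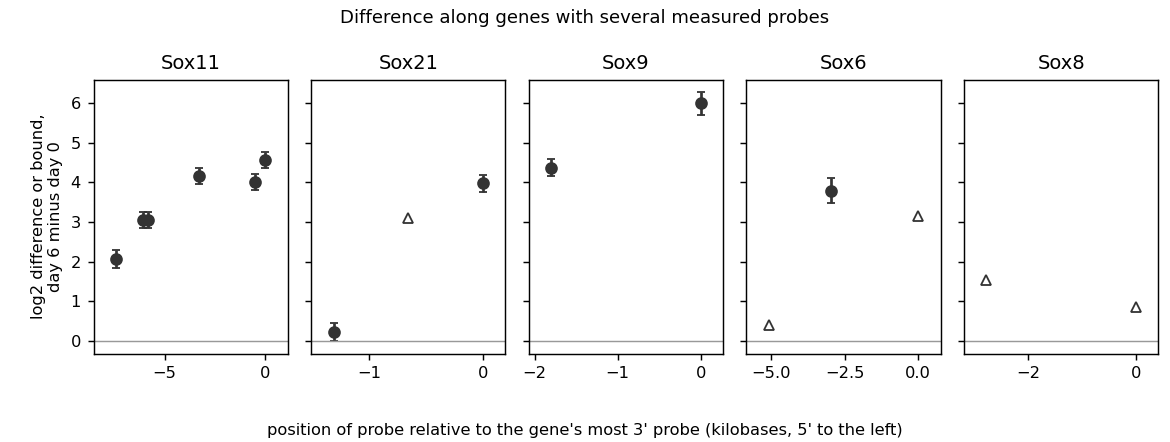
Log2 difference, day 6 minus day 0, of each measured Sox probe against its position relative to the most 3′ probe of the gene (kilobases); filled circles were well above background on both arrays, with bars for the SD of the software error, and open triangles are lower bounds of probes detected on day 6 only. The most 3′ circle is the highest in Sox11, Sox21 and Sox9, with 2 small steps back within Sox11, while the end probes of Sox6 and Sox8 have bounds only.

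Base composition moved with position, and its part in this order was not tested. The most 5′ probes of Sox11 and Sox21 held 61.7% and 66.7% G and C, and their most 3′ probes held 35% and 45%. Over the 15 Sox probes measured on both arrays, from 8 genes, G and C content and the log2 difference had a Pearson correlation of -0.54 and a Spearman correlation of -0.48. This is a description across probes that share 2 arrays, 6 of them from Sox11. Over all 23731 probes the Pearson correlation was -0.09.

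Targets and other genes of the SoxE and SoxD factors were mixed. Of 11 measured cartilage genes, which Sox9, Sox5 and Sox6 switch on together in chondrocytes, 5 were higher by 2-fold or more on day 6 and 2 lower. Their median was 0.79, and the shares of all genes were 17.8% higher and 20.1% lower. Col2a1, the type II collagen gene that Sox9 binds, read 12044 on day 6 and 1524 on day 0, 6.77-fold higher (2.76 ± 0.20). The aggrecan gene Acan, another Sox9 target, was 3.44-fold lower at 153 on day 6 and 451 on day 0, and Matn1 was not well above background on either array. Cnmd (chondromodulin) and Col9a1 were detected on day 6 only, with bounds of at least 3.88-fold for Cnmd and at least 4.01-fold for Col9a1.

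Of 12 measured glial genes, 7 were higher by 2-fold or more on day 6 and 2 lower, with a median of 1.45. The shares of all genes were 17.8% and 20.1%. Nkx2-2, a ventral progenitor and oligodendrocyte factor, was 18.1-fold higher (4.18 ± 0.29), and Olig2 was at least 3.23-fold higher. The 2 lower genes were Nfib (-1.63 ± 0.21) and Cspg4 (-2.01 ± 0.34). The astrocyte filament gene Gfap was not well above background on either array. Neural crest genes, which include the SoxE gene Sox10, differed in both directions, with a median of -0.19. Of 10, 3 were higher by 2-fold or more and 3 lower, beside 17.8% and 20.1% of all genes. Ednrb was at least 113-fold higher, and Pax3, also a dorsal neural tube gene, at least 12.6-fold. The lower ones were Foxd3, detected on day 0 only and at least 32.5-fold lower, Tfap2a (2.74-fold) and Snai2 (2.55-fold).

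The other Sox genes differed in both directions. Of 10 listed, 8 were measured, with a median of 0.19. Of these, 2 were at least 2-fold higher on day 6, 2 lower and 4 within 2-fold. Of all genes, 17.8% were at least 2-fold higher and 20.1% lower. Sox15, a factor that can bind with Oct4 in ES cells, had 315 on day 6 and 2284 on day 0, 8.47-fold lower (-3.08 ± 0.22). Sox7, an endoderm and endothelial factor, had 113 on day 6 and 413 on day 0, 4.26-fold lower (-2.09 ± 0.33). Sox17, an endoderm factor of the same subgroup, went the other way at 1153 on day 6 and 329 on day 0, a difference of 1.58 ± 0.23. Sox10 was 2.09-fold higher (1.07 ± 0.27), at 563 on day 6 and 230.3 on day 0.

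Among the remaining Sox genes, Sox13 differed by 0.82 ± 0.20, Sox12 by 0.21 ± 0.41, Sox18 by 0.18 ± 0.21 and Sox14 by -0.28 ± 0.28. Sox12, also a SoxC gene, was well above background on day 6 only. Sox30 and Sry were not measured on either day. Of 6 measured endoderm genes, listed because Sox7 and Sox17 act there, 2 were at least 2-fold higher and 1 lower. The shares of all genes were 17.8% and 20.1%. Foxa2, which is also a floor plate gene, differed by 6.71 ± 0.22. Ttr and Afp were not measured on either day.

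In the longer fibroblast list, 9 of 12 genes were 2-fold lower or more and 3 were higher by less than 2-fold. Their median was -1.87, and 20.1% of all genes were at least 2-fold lower. Col1a1 and Thy1 differed by -4.32 ± 0.20 and -4.89 ± 0.21, S100a4 by -7.31 ± 0.28, and Lox was at least 118-fold lower on day 6. None of 9 measured reference genes differed by 2-fold, with Ppia at -0.61 ± 0.20 and Pgk1 at 0.52 ± 0.20 as the farthest from 0.

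Over the 2 arrays, likeness to a Sox gene can only be the closeness of 1 log2 difference. It is given by the brightest probe of each gene, for the Sox genes and 84 other list genes well above background on both arrays. This leaves out Sox8. The closest to Sox11 (3.05) were Nfia, a gliogenic factor gene (3.05), and Col2a1 (2.76). Nkx2-2 (4.18) and Map2, a neuronal microtubule gene (3.60), were the closest to Sox21 (3.98), Sox9 (4.37) and Sox6 (3.80). For Sox4 (2.05) these were Ncam1 (2.23) and Slc1a3 (1.84), and for Sox5 (1.71) Tubb3 (1.66) and Gap43 (1.82). The lowest probe of Ncam1 differed by -1.82 and that of Slc1a3 by -1.31, so their closeness to Sox4 holds for the brightest probe only. Likeness to Sox21, Sox11 and Sox9 is also limited to the brightest probe, since their other probes gave differences of unequal size. Another Map2 probe gave 2.01, with no bound set. Sox1 (1.29) had Tead2 (1.40), and Sox2 (-0.43) had Neurod1 (-0.51) and Sdha (-0.34).

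Promoter sequences, from RefSeq on build GRCm38.p6, were found for 8 of the 10 genes, with 13 start sites, and Sox3 and Sox9 had no entry. They were searched on both strands for the Sox core letters CTTTGT, which read ACAAAG on the opposite strand. Also searched were the Sox variant CATTGT, which reads ACAATG, and the POU octamer ATGCAAAT, which reads ATTTGCAT. CTTTGT was found in promoters of Sox2 and Sox6 and in 18.7% of all 32851 promoters, and CATTGT in promoters of Sox5 and Sox6 and in 12.6% of all. The octamer was found in Sox1, just after the start site, and in 1.74% of all. Counted by promoter, as in these shares, 6 of the 13 Sox promoters held CTTTGT, 3 CATTGT and 1 the octamer. Most of the 6 belong to Sox6. A match is a description of letters, not a binding site. The 250 bases before the start are shown for Sox2, the gene that stayed within 2-fold, at chr3:34649745-34649994 on the plus strand, with ACAAAG in capitals, and for Sox11, the gene with 6 of 6 probes higher, at chr12:27342719-27342968 on the minus strand, where none of the letters was found.
Sox2: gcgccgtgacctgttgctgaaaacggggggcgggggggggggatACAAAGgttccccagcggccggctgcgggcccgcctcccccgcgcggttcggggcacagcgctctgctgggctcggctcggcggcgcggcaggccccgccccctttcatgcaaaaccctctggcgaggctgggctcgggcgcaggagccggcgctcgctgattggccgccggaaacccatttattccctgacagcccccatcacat
Sox11: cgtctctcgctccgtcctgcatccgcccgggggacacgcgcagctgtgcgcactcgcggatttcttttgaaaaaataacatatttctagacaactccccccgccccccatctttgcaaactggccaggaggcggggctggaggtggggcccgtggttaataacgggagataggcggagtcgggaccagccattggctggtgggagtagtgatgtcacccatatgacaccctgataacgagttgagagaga

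Both sequences are rich in CG dinucleotides, with 27 in Sox2 and 21 in Sox11 over the promoter window, where the median of all promoters was 7.

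**Figure D5:**
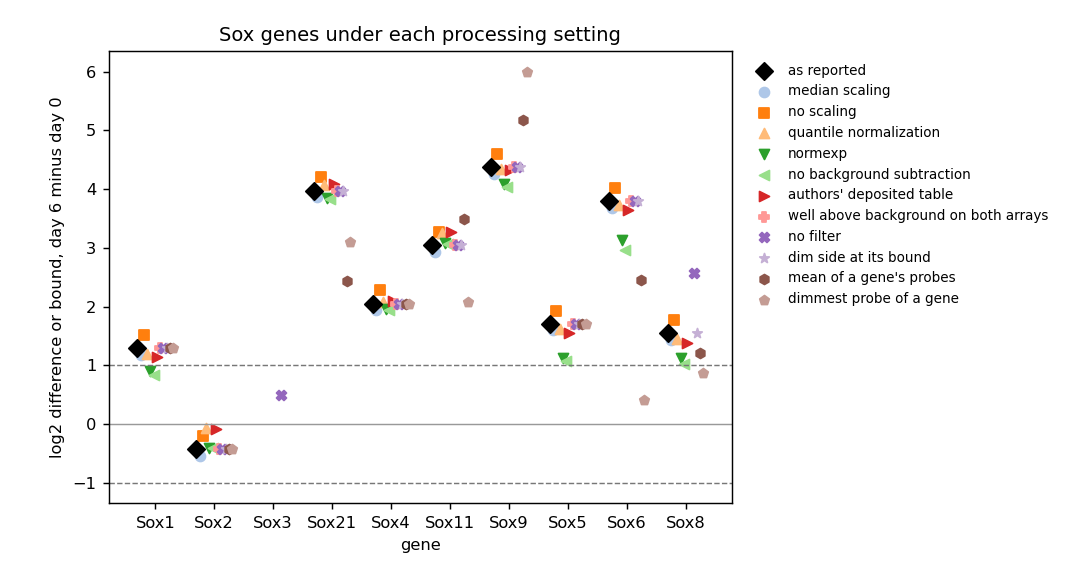
Log2 difference (or bound, where only 1 array was well above background) of each measured Sox gene, day 6 minus day 0, under the reported setting (black diamonds) and 11 other processing settings, with Sox3 shown only where no filter was set. Sox2 stays between the dashed 2-fold lines in all of them, and Sox4, Sox5, Sox9, Sox11 and Sox21 stay above 2-fold in all of them. No setting took Sox21 from its most 5′ probe alone, whose own difference lay between 0.12 and 0.46 over the settings.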

How the data were processed

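Total RNA was measured on 2 one-colour (Cy3) Agilent arrays of design 014868, 1 for day 6 and 1 for day 0, at different positions of the same slide, so position and day cannot be told apart. The deposited scanner files give an intensity per spot after background subtraction and detrending by Feature Extraction 9.5.3.1, with its software error, per the file headers, which name build mm7 for probe positions. The deposited table of the authors holds log2 values, and how they were normalized is not stated in any source used here. Both of its columns had a median of 8.53, and its differences had a Pearson correlation of 0.996 with those of the scanner files, so scale and direction match and its 2 columns share 1 distribution.

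Control and outlier spots were left out, log2 intensities of a probe's spots averaged, and each array's 75th percentile subtracted (4388 intensity units on day 6 and 3758 on day 0). Well above background were 26882 probes (65.5%) on day 6 and 25227 (61.5%) on day 0. A gene took its brightest probe among those well above background on at least 1 array. Calls at 2-fold put a dim side at its bound. Normexp used limma 3.58.1 with an offset of 50, and other steps used Python 3.11.15. The scaling and call steps were tested on simulated data. Sox probes follow the gene name in the files. A probe named A730017D01Rik there, which an older symbol ties to Sox5, was not counted. Other probes were named through a RefSeq table (assembly GRCm38.p6) by accession (22903), current symbol (6633) or older symbol (3091), and 8416 stayed unnamed.

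The Sox genes and lists were chosen with earlier results of these data known. All Sox genes and Sox probes are named, as are, for each Sox gene, the 2 list genes closest in difference, of which 1 is not reported here. Limiting these and the order along the gene to probes well above background on both arrays was chosen after seeing the data. From each other list the 2 genes with the largest difference of either sign are named, plus Pou5f1, Nanog, Pou3f2, Pax6, Nes, Tubb3, Dcx, Col2a1, Sox10, Sox17, Col1a1 and Thy1. Outside this rule, Acan, Matn1, Gfap, Ttr, Afp, Neurog2, Sox30 and Sry were chosen after their values were seen. So were Foxd3, Tfap2a, Snai2, Nfib, Cspg4, Klf2, Sall4, Pou3f3, Msi1 and Gli2.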

Additional observations from a re-analysis of the deposited data

How the results depend on the processing

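Each day had 1 array, so no array could be left out. No paired analysis was possible because each group holds 1 sample. The median difference of the Sox genes was 2.58. It stood at 2.80 with no scaling, 1.96 with normexp, 1.95 with no background subtraction, 2.34 in the authors' deposited table, 2.32 with no filter, 2.05 with dim sides at their bound and 2.08 with the dimmest probe of a gene. The cause was not tested, except that the last 3 use other members or values by construction. In the other 4 settings the median difference moved by less than 0.22, the median software error of the Sox genes. The reported median is the value of Sox8, whose own software error was larger, at 0.63. The number of Sox genes at least 2-fold higher was 8, and it was 7 with normexp and with no background subtraction (without Sox1), 7 with the filter on both arrays (without Sox8) and 6 with the dimmest probe (without Sox6 and Sox8). None was 2-fold lower in any setting. Of 175 probe values under the alternatives, 40 moved by more than the software error, and no 2-fold difference changed sign. The median of all genes was -0.09, and it was -0.21 with median scaling and 0.13 with no scaling. Among 2-fold differences of all genes, 47.0% were higher on day 6, and 57.8% with no scaling.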

Other observations

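The probe listed as A730017D01Rik, which an older symbol ties to Sox5, differed by -0.93 log2 units between day 6 and day 0, while the measured Sox5 probe (A_51_P500318) differed by 1.71. Which transcript the first probe measures was not tested.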
